A study of Homo sapiens with 5 samples.

Results

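The G2/M nuclei were 646 of the 6456 nuclei ranked by the RNA of 8 mitotic genes in a mixture of 5 human lung adenocarcinoma cell lines. The lines H2228, H1975, A549, H838 and HCC827 are established epithelial tumour lines and were kept in separate cultures, in serum-containing medium, until they nearly covered the dish. The labels name no drug and no genetic change for any of them. The cells were mixed and lysed, and their nuclei were sorted by fluorescence, with a gate that no source used here describes. RNA and open chromatin were then read from the same nuclei with the 10x Multiome assay, in which each barcode has RNA molecules counted by unique molecular identifiers (UMIs) and counts of transposase-cut DNA (ATAC) in called peaks. The droplets were divided into an 80% portion and a 20% portion, each with 1 RNA and 1 ATAC library, and the 20% portion also had 1 long-read RNA library. The 80% matrix held 6557 barcodes with 95455518 RNA UMIs and 63920767 ATAC counts, and the 20% matrix held 1286 barcodes. The portions together held 7684 different barcodes, beside a total of 9700 nuclei named in the labels, and 159 barcodes were in both.

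Nuclei with at least 5000 RNA UMIs were ranked by a score, the summed UMIs of MKI67, TOP2A, CENPF, ASPM, TPX2, CENPE, KIF11 and BUB1 divided by all UMIs of the nucleus. The members are the 10% with the highest score. They were compared with the 3228 nuclei of the lowest 50%, and the 2582 nuclei between are given where they help to place the members. The lowest member had a score of 36.4 UMIs per 10000 and the highest nucleus outside had 36.4, so the boundary cuts through a continuous range, with 121 members and 137 other nuclei within 10% of it. Because RNA chose the members, every RNA difference below is a description. With 1 library of each kind, nuclei are not replicates and no test between groups was possible. Values are therefore given as medians with quartiles over nuclei, or as summed counts with exact Poisson intervals that cover counting error only. 10 members and 53 nuclei of the lowest 50% had a barcode that was also in the 20% matrix. Doublet calls were made on 17 members (2.63%), 147 nuclei of the lowest 50% (4.55%) and 8.48% of the nuclei between, and doublets were kept.

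Cells that have copied their DNA pass through G2 and then mitosis, when cyclin B and CDK1 drive entry, condensin packs the chromosomes, kinesins and spindle proteins move them, and the anaphase promoting complex marks cyclin B and securin for destruction. Genes for these proteins are transcribed late in the cycle: in quiescent and early cells the DREAM complex keeps many of them silent, and later B-MYB with the MuvB core and FOXM1 activate them. Many of their promoters carry a cell cycle genes homology region with the core TTTGAA, which DREAM and MuvB complexes contact, and CCAAT boxes, which NF-Y binds. In mitosis the nuclear envelope breaks down and chromatin condenses, while many promoters are known to stay accessible.

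The promoters below are shown because they hold TTTGAA and because the accessible peak over each was also measured. Of the 8 score genes and 9 other mitotic genes whose start peaks were examined, TPX2, AURKA, UBE2C and FOXM1 were not searched for want of an entry in the promoter table, and of the rest these hold TTTGAA, on either strand, within the 100 bases before a RefSeq start (GRCh38.p14, printed 5′ to 3′ along the gene, with every TTTGAA and every CCAAT, on either strand, in capitals).
MKI67: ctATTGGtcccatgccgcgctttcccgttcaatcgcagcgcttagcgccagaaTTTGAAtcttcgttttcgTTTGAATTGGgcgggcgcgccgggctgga
KIF11: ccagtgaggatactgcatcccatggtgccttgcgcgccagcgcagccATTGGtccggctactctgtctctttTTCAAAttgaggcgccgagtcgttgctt
CCNB2: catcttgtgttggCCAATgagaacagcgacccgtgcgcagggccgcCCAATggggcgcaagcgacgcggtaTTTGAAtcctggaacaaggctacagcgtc
PLK1: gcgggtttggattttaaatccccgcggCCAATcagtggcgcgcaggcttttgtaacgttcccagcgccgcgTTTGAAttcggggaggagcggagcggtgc
CDC20: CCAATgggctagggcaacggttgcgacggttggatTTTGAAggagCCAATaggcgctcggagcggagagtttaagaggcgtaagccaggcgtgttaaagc
CDK1: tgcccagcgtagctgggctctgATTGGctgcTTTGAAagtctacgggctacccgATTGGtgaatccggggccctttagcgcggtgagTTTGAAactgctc
The stretches lie at chr10:128126424-128126523 on the minus strand, chr10:92593030-92593129 on the plus strand, chr15:59105046-59105145 on the plus strand, chr16:23678789-23678888 on the plus strand, chr1:43358881-43358980 on the plus strand and chr10:60778378-60778477 on the plus strand. TTTGAA began 29 bases before the start in MKI67, CCNB2 and PLK1, and its reverse complement began 28 bases before it in KIF11. MKI67 held a further copy 47 bases before the start, and its proximal TTTGAA shares its last base with a CCAAT of the other strand. CDK1 has more than one annotated start, and the upstream one is printed.

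Over the 300 bases from 250 before to 50 after each RefSeq start, with both strands searched and any start of a gene counted, 52 of 89 G2/M genes outside the score held TTTGAA (58.4%), against 14.2% of the 10929 measured genes with an entry and 15.2% of all 35116 promoters of this length, counted by start, or 18.2% counted by gene. The kinesin and spindle list had the highest share of the G2/M lists outside the score, 19 of 28, and the S-phase list held it in 4 of 32. CCAAT was in 59 of the 89 G2/M promoters and in 24 of the 32 S-phase promoters, against 43.3% of measured genes and 39.7% of all genes of the table, counted in the same way. Both motifs stood together in 37.1% of the G2/M promoters and 9.38% of the S-phase promoters, against 5.98% of measured genes. A match is a description of letters and not a site of binding.

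The label of the group was held against markers that the score did not use. The members' median score was 49.7 UMIs per 10000 against 1.65 in the lowest 50%, and 438 of 646 members had UMIs of all 8 score genes. CENPF, a kinetochore protein of late G2, supplied 28.9% of the members' score UMIs, and TOP2A, the topoisomerase that untangles chromosomes, 23.6%. KIF11, the kinesin that separates the spindle poles, supplied 2.28%. Of the 10 G2/M markers outside the score (CCNB1, CCNB2, CDK1, PLK1, AURKA, CDC20, UBE2C, BIRC5, HMMR and CENPA), each was at a higher level in the members in all 5 RNA clusters, with ratios from 6.95 for CENPA, the centromeric histone, to 32.2 for PLK1. The lines were not told apart by label, so the nuclei were clustered on RNA without cell cycle genes into 5 clusters, which are kept unnamed and given by number and leading gene. For ratios of genes, lists and peaks the lowest 50% was weighted to the members' mixture of these clusters, because its own mixture differed, and medians over nuclei are unweighted unless said otherwise. Among markers of cells that the cultures should lack, PTPRC, the leukocyte antigen, had 1 UMI in all members and 24 in the lowest 50%. CD68, a lysosomal gene that tumour cells also express, was the most abundant of the 8 immune and endothelial markers and was at 19.5 CPM (16.98 to 22.3) against 19.4 CPM. PECAM1, an endothelial and platelet adhesion protein and the only other marker of the list with at least 100 UMIs, was at 5.08 CPM (3.84 to 6.59) against 8.42 CPM, a ratio of 0.603, and was lower in all 5 clusters. The whole list summed to 27.02 CPM in the members and 30.1 CPM in the weighted lowest 50%.

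Across all genes with at least 100 UMIs in both groups together, 823 of 15302 were at least 1.5-fold higher in the members (5.38%) and 2114 were at least 1.5-fold lower (13.8%), with a median ratio of 0.936. With the ratios centred on that median, 1033 genes were higher and 1632 lower. At a minimum of 1000 UMIs the counts were 419 and 519, so the excess of lower genes lay mostly among genes with few UMIs. Against this background, 19 of 19 mitotic cyclins and kinases were at least 1.5-fold higher, with a median ratio of 13.2. CCNB1, which encodes cyclin B, was the most abundant of them, at 701 CPM, that is UMIs per 1e6 UMIs, in the members (95% counting interval 685 to 717) and 48.2 in the weighted lowest 50%. Its ratio was 14.6, and it lay between 8.97 and 17.99 in the 5 RNA clusters. PLK1, the kinase of centrosome maturation and mitotic exit, was at 292 CPM (282 to 302) against 9.06 CPM, the highest ratio of the list (32.2). In the nuclei between, PLK1 was at 68.6 CPM. NEK2, a centrosome kinase, had a ratio of 29.4, AURKA, the spindle pole kinase, 14.8, and CDK1, the partner of cyclin B, 12.1. WEE1, which holds CDK1 inactive, had the lowest ratio of the list, 1.84, at 57.04 CPM (52.7 to 61.7) against 30.98 CPM.

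All 30 kinesins and spindle proteins were at least 1.5-fold higher, and each was higher in every RNA cluster. ANLN, the scaffold of the cleavage furrow, was the most abundant, at 776 CPM (759.9 to 793) against 52.1 CPM. GTSE1, a microtubule-binding protein of G2, had the highest ratio of any gene in the lists (40.4), at 147 CPM (139.6 to 154) against 3.63 CPM. KIF14, a kinesin of cytokinesis, followed with 39.8. The lowest ratios were those of KIF22, a chromosome-arm kinesin, with 3.42, and CKAP5, a microtubule polymerase, with 3.72. The kinetochore list was likewise 22 of 22, with a median ratio of 8.55. Its members that hold microtubules were far apart between the groups, with NDC80 at 120.3 CPM (114 to 127) against 5.42 CPM and NUF2 at 271 CPM (261 to 281) against 20.6 CPM. CDCA8, a subunit of the chromosomal passenger complex, had the highest ratio (26.03). The lowest were SKA2, a microtubule coupler (1.74), and CENPK, a subunit of the constitutive centromere network (1.88).

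In the list of condensin, cohesin and separase, 12 of 16 genes were at least 1.5-fold higher. ESPL1, the separase that cuts cohesin at anaphase, was at 51.2 CPM (47.1 to 55.6) against 2.004 CPM, with a ratio of 25.6 that ranged from 5.78 to 44.4 over the clusters. The condensin subunits NCAPG and SMC4 had ratios of 13.2 and 5.92, and SMC4 was the most abundant gene of the list at 793 CPM. Of the cohesin subunits, RAD21 had a ratio of 2.52, SMC3 1.31 and STAG2 0.952, the last at 183 CPM (175 to 191) against 192 CPM. In the list of the anaphase promoting complex and its ubiquitin enzymes, 7 of 15 genes were at least 1.5-fold higher and the median ratio was 1.37. The activator CDC20 was at 350.1 CPM (339 to 361) against 27.7 CPM (ratio 12.6), and the ubiquitin enzymes UBE2C and UBE2S had ratios of 8.19 and 5.78. UBE2C varied most between clusters, from 1.38 to 26.3. Of its core subunits, CDC27 had a ratio of 1.94 and was higher in all 5 clusters, and ANAPC5 had 0.903.

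Of the cell cycle transcription regulators, 7 of 19 were at least 1.5-fold higher and 1 was at least 1.5-fold lower. FOXM1, an activator of late genes, was at 43.3 CPM (39.5 to 47.4) against 5.46 CPM (ratio 7.94). E2F8, a repressor of E2F targets, had a ratio of 5.504, but was at 19.8 CPM in the members and 24.7 CPM in the nuclei between. The genes of this list summed to a median of 7.72 UMIs per 10000 in the members and 8.81 in the nuclei between. E2F1, which activates genes at the G1/S boundary, was the gene below the limit, at 11.9 CPM (9.93 to 14.1) against 20.7 CPM, a ratio of 0.574 that was 0.992 in the 20% portion. TFDP2, a dimer partner of the E2F proteins, had a ratio of 0.727, and RB1 stood at 1.03. The G1 list held 5 of 16 genes at least 1.5-fold higher and 3 at least 1.5-fold lower. Its highest were CDKN3, a phosphatase of CDKs that is expressed in mitosis (6.86), and CDKN2D, an inhibitor of CDK4 and CDK6 (6.27). The cyclin E genes CCNE1 and CCNE2 were lower, with ratios of 0.598 and 0.547, and CCND1, cyclin D1, was at 238 CPM (229 to 247) against 235 CPM.

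**Figure D1:**
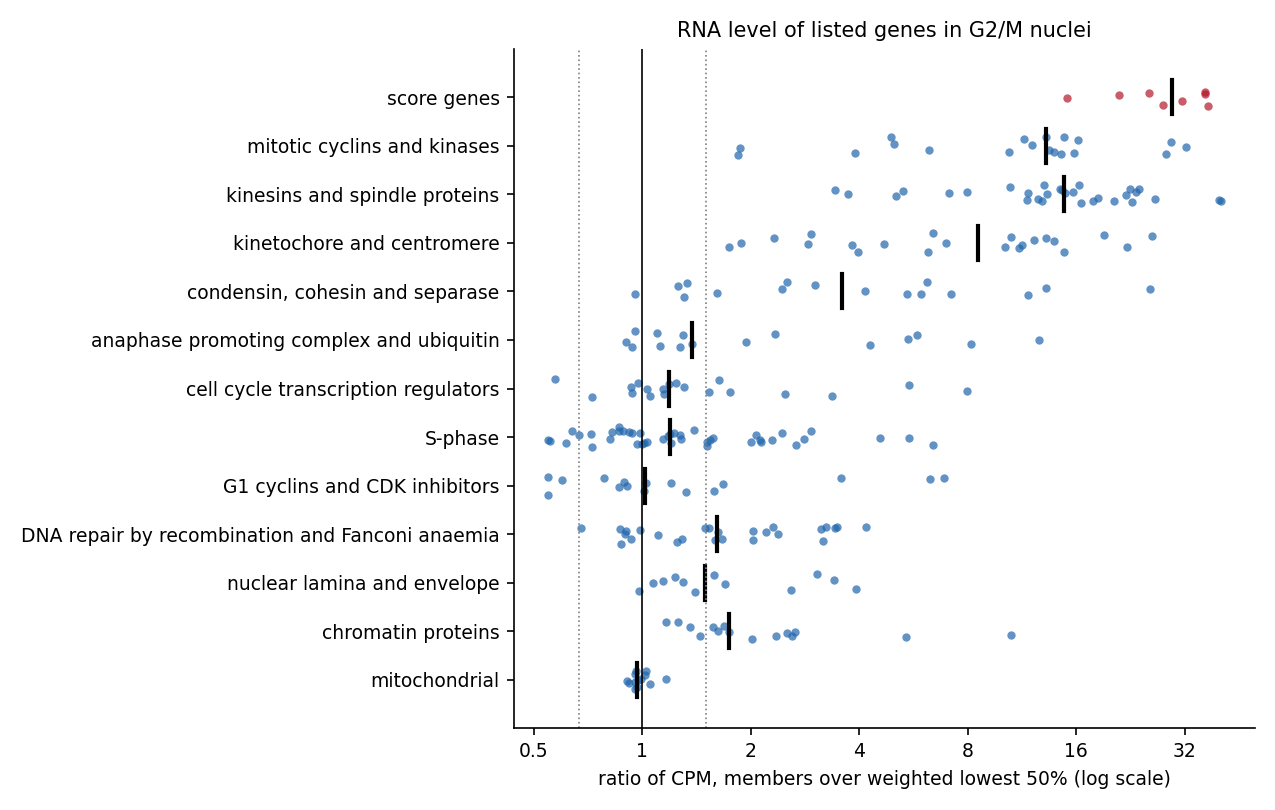
Ratio of CPM in the members over the weighted lowest 50% for each measured gene (points, log axis) of 13 lists, with the median of each list as a bar and dotted lines at 1.5-fold. The score genes (red) chose the members; all 30 kinesins and spindle proteins lie right of the upper line, the S-phase genes lie on both sides of 1, and the mitochondrial genes lie near 1.

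The summed S-phase RNA of a nucleus was higher in the members than in the lowest 50%, but lower than in the nuclei between. The 43 genes summed to a median of 24.6 UMIs per 10000 in the members (quartiles 18.1 to 33.8), 15 in the weighted lowest 50% and 44.3 in the nuclei between. By decile of the score, the median was 11.03 in the lowest decile, 53.2 in the seventh and 24.6 in the highest. 30 of the 43 genes had their highest level in the seventh decile, whereas 30 of 30 kinesins and spindle proteins and 18 of 19 mitotic cyclins and kinases had it in the highest. The cyclin and kinase list's exception was PKMYT1, a kinase that inhibits CDK1, which was at 43.4 CPM in the seventh decile and 25.9 CPM in the highest. The score itself orders these deciles, so the profile of the mitotic lists follows from the ranking.

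Within the S-phase list, 16 of 43 genes were at least 1.5-fold higher in the members than in the weighted lowest 50% and 4 at least 1.5-fold lower. RRM2, a subunit of ribonucleotide reductase, had the highest ratio (6.43), at 136 CPM (129 to 143) against 21.2 CPM. Next to it stood E2F8, and TYMS, thymidylate synthase, had 2.93. The subunits MCM3 and MCM7 of the replicative helicase are not in the list and were added after their values were seen. Of its subunits, MCM6 had a ratio of 0.616, MCM3 0.7701, MCM5 0.823, MCM2 0.864, MCM4 1.001 and MCM7 1.43. PCNA, the sliding clamp, was at 242 CPM (233 to 251) against 202 CPM, and at 445 CPM in the nuclei between. In RNA cluster 1 the members' S-phase sum was 35.6 UMIs per 10000 against 11.4, a ratio of 3.12, while the ratios of the other clusters lay between 1.33 and 1.97.

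**Figure D2:**
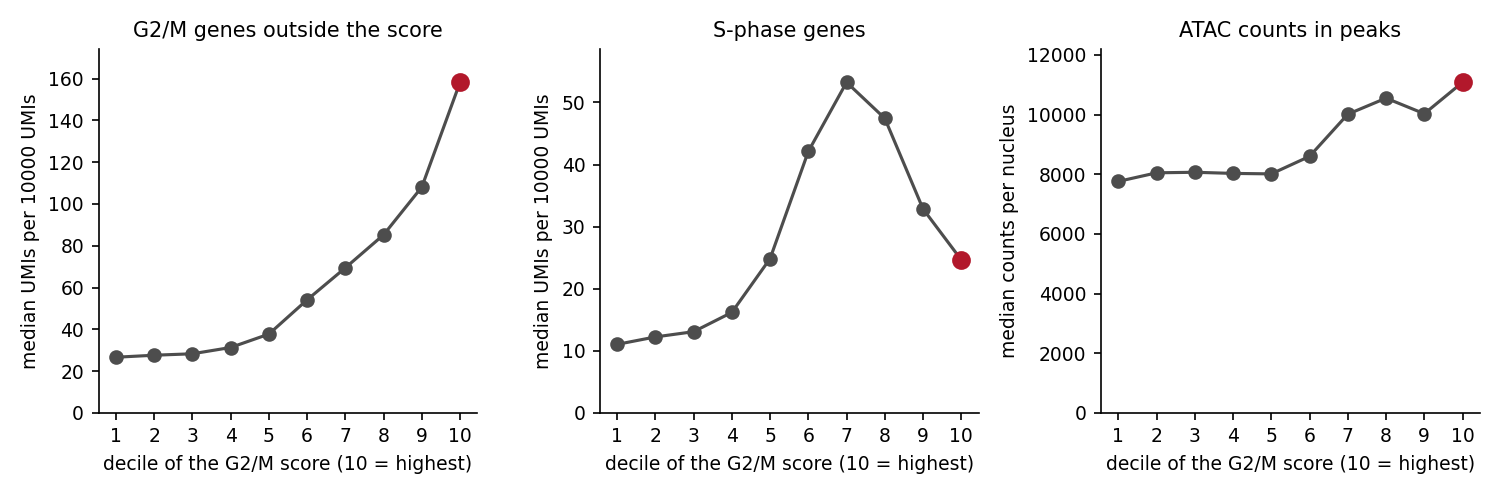
Medians over nuclei by decile of the score, for the summed UMIs of 102 G2/M genes outside the score, for 43 S-phase genes (both per 10000 UMIs) and for ATAC counts per nucleus; the red point is the highest decile. The S-phase sum peaks at 53.2 in the seventh decile, and the G2/M sum reaches 158 in the highest.

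Over the 102 genes of the 5 G2/M lists together, 90 were at least 1.5-fold higher, and none was at least 1.5-fold lower at this limit. Their sum had a median of 158 UMIs per 10000 in the members, with a lowest value of 64.8 and a highest of 259. In the lowest 50% the weighted median was 29, and the values ran from 10.1 to 105, so that the ends of the groups overlap. Among the members, the sum was 134 in the 162 members with the lowest scores and 189 in the 161 with the highest, while the S-phase sum was 29.1 and 18.3. RNA cluster 0 held 80.1% of those 161 and 34.6% of those 162.

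Genes of the nucleus itself also differed. Of 15 measured chromatin protein genes, 11 were at least 1.5-fold higher. HMGB2, a DNA-bending protein, was at 529 CPM (515 to 542) against 50.2 CPM (ratio 10.5), and the related HMGB1, the most abundant of the list, at 1295 CPM (1274 to 1317) against 767 CPM (ratio 1.69). The histone variant genes H2AFX and H2AFZ had ratios of 5.38 and 2.52, and CBX5, which encodes the heterochromatin protein HP1 alpha, 1.36. In the lamina and envelope list 6 of 12 were at least 1.5-fold higher: the B-type lamin genes LMNB1 and LMNB2 had ratios of 3.91 and 3.06, and TMPO, a lamina-associated protein, 3.4. LMNA, the A-type lamin gene, was at 1074 CPM (1054 to 1093) against 1004 CPM, a ratio of 1.07. In the list of recombination repair and Fanconi anaemia genes, 15 of 26 were at least 1.5-fold higher, led by POLQ, the polymerase of end joining at microhomologies (4.18), and BRCA2, a recombination repair gene (3.47). FANCL, a Fanconi ubiquitin ligase, had the lowest ratio (0.678). The most abundant genes of the list were RAD51B (ratio 0.865), RAD50 (0.872), FANCC (0.893) and NBN (1.103). Its genes summed to a median of 17.9 UMIs per 10000 in the members, 13.6 in the weighted lowest 50% and 21.5 in the nuclei between, so the members were not the highest. None of the 13 genes of the mitochondrial genome passed either limit, and their median ratio was 0.967.

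Of the 823 genes at least 1.5-fold higher, 666 were in none of the lists. Among those with at least 1000 UMIs and one direction in all clusters, DEPDC1 had the largest ratio (21.7), at 160.0 CPM (153 to 168) against 7.37 CPM. It was followed by CDCA2, which brings a phosphatase to anaphase chromosomes (18.6), CDCA3 (17.9), FAM83D, a spindle protein (17.7), and CEP55, a midbody protein (14.5). The next 9 were ARHGAP11B, PRR11, DEPDC1B, SAPCD2, ESCO2, NEIL3, SHCBP1, KPNA2 and DIAPH3, with ratios from 14.3 down to 7.998, and TROAP closed the 15 at 7.61. KPNA2, a nuclear import receptor, was the most abundant of them at 792 CPM (775 to 808) against 94.6 CPM. ARHGAP11B is a near-copy of another gene, ARHGAP11A, so its reads may be shared. The genes with the smallest ratios were ANKRD1, a YAP-responsive gene, at 21.7 CPM (19.01 to 24.6) against 68.7 CPM (ratio 0.316), then RGS6, LBH, ZSCAN31, HDAC9, TSHZ2, NUPR1, DAB2 and the unnamed loci AC019117.1 and AC009133.1, with ratios from 0.322 to 0.356. Without weighting the ratio of HDAC9 was 0.646 and that of TSHZ2 0.153. HDAC9 was less apart in the 20% portion, with a ratio of 0.774, as were ZSCAN31 (0.716) and LBH (0.604).

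Long genes stood lower in the members. Among protein-coding genes whose canonical transcript spans at least 200 kb, the median ratio was 0.813 and 26.1% of 936 were at least 1.5-fold lower. Among genes of 5 to 20 kb the median ratio was 0.978 and 9.33% of 3643 were lower. The median of the longest genes was the lowest of the 5 span classes in each RNA cluster, from 0.703 to 0.887, and it was 0.814 in the 20% portion. Genes at least 1.5-fold lower with at least 1000 UMIs had a median span of 117 kb, against 37.9 kb for all genes at that minimum and 35.3 kb for those at least 1.5-fold higher. The mixture of spliced and unspliced RNA was not measured in the counts used here.

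**Figure D3:**
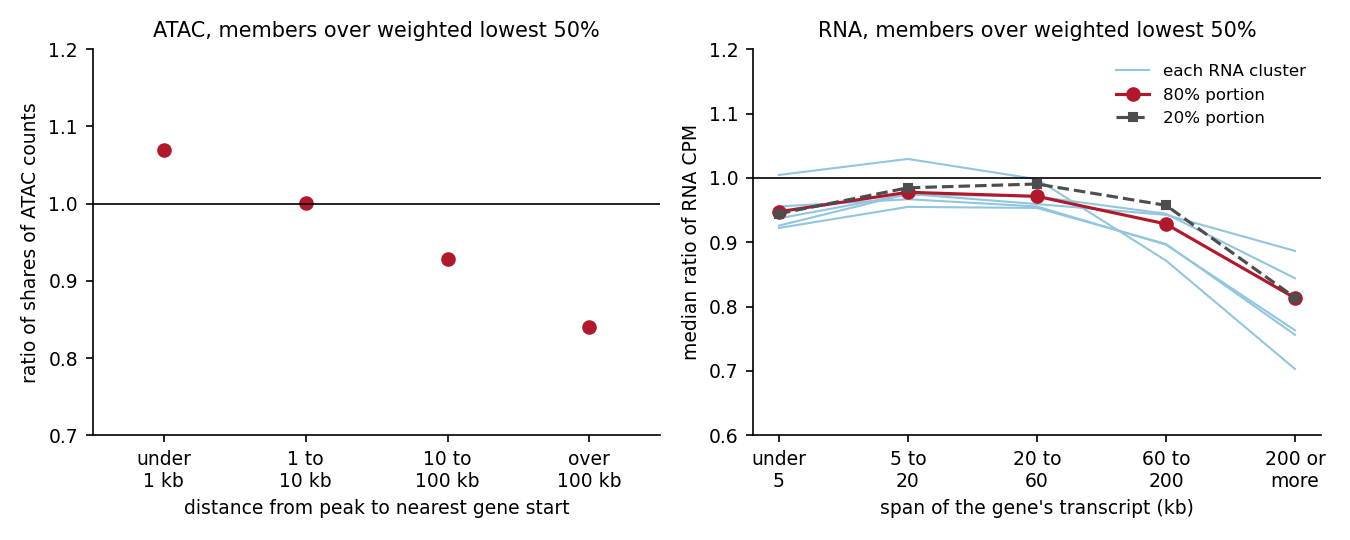
Left, share of ATAC counts in peaks at 4 distances from the nearest gene start, as the members' share over that of the weighted lowest 50%. Right, median ratio of RNA CPM for protein-coding genes in 5 classes of transcript span, for the 80% portion (red), the 20% portion (dashed) and each of 5 RNA clusters (thin lines). The ATAC ratio is 1.07 within 1000 bp of a start and 0.8399 beyond 100 kb, and the RNA ratio is 0.813 for the longest genes.

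The members had more RNA and more ATAC counts than the lowest 50%, with wide overlap. Their median was 16026.5 RNA UMIs (quartiles 11213 to 21257) against 12749.5 (quartiles 9994 to 15693.5), a ratio of 1.26 unweighted and 1.25 weighted. ATAC counts ranged from 162 to 43791 in the members, with a median of 11006 and quartiles of 6650.5 and 16568. In the lowest 50% they ranged from 160 to 52024, with a median of 7989.5, or 9165 weighted to the members' clusters. The ratio of medians was 1.201 weighted and 1.38 unweighted. In the nuclei between, the median was 9820 ATAC counts, or 10382 weighted. By decile of the score it was 10011 in the seventh, 10549 in the eighth, 10026.5 in the ninth and 11080 in the highest. 25.1% of the lowest 50% lay above the members' median, and 33.1% of the members lay below that of the lowest 50%. ATAC counts per RNA UMI had a median of 0.744 in the members and 0.745 in the weighted lowest 50%. After each nucleus was thinned to 5000 UMIs, 2670.5 genes were detected in the median member and 2674 in the lowest 50%, from 5320 and 4772.5 before thinning.

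The ATAC difference was not the same in every cluster. RNA cluster 0, led by CDH11, held 325 members (50.3%, exact binomial interval 46.4 to 54.2%) and 36.9% of the ranked nuclei. Cluster 1, led by AC069277.1, held 80 members, which were 5.28% of its ranked nuclei, the lowest share of the 5, and 68.7% of its nuclei were in the lowest 50%. Clusters 2 (ALDH1A1), 3 (DHRS2) and 4 (EGFR) held 141, 55 and 45 members. Their own shares were 9.66%, 7.02% and 14.3%, and that of cluster 0 was 13.6%. In cluster 1 the members' median ATAC count was 5974.5 against 6678, a ratio of 0.895, below 1. In the others the ratios were 1.28 (cluster 0), 1.26 (2), 1.37 (3) and 1.59 (4). Within bins of RNA UMIs the weighted ratio was 0.869 in the shallowest bin (to 9605 UMIs) and 0.976 in the middle one, and between 1.16 and 1.199 in the other 3 bins.

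**Figure D4:**
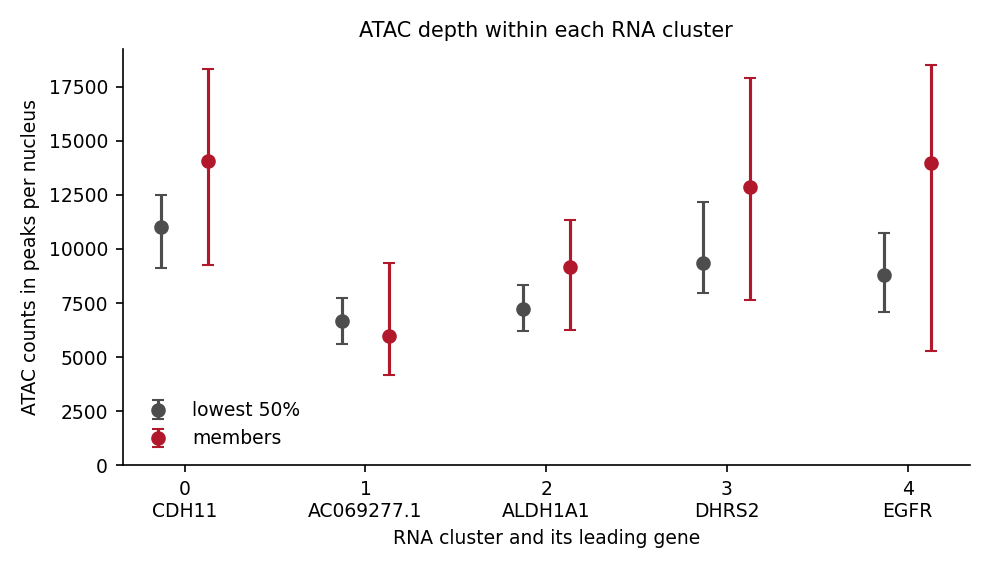
ATAC counts in peaks per nucleus in each RNA cluster, as median (point) and quartiles (bars) over nuclei, for the members (red) and the lowest 50% (grey). The members' median is higher in 4 clusters and lower in cluster 1, at 5974.5 against 6678, and their quartiles are wider in each cluster.

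More of the members lay at the deep end. 75 members (11.6%, interval 9.24 to 14.3%) had under 4000 ATAC counts, against 9.603% of the lowest 50% without weighting. By cluster, the shares were 22.5% against 11.5% (cluster 1), 12.7% against 6.47% (3) and 20% against 14.3% (4). In cluster 0 they were 8.92% against 7.99%, and in cluster 2 the order was turned, 8.51% against 9.96%. At the other end 10.99% of the members had at least 20000, against 2.39%. The members under 4000 had a median of 14315 RNA UMIs, against 16296 in the deeper members. Their ATAC counts lay more at gene starts, 53.7% at the median, against 47.3% in the deeper members. In the lowest 50% the same division gave 46.1% and 44.9%. With the members ordered by ATAC count and divided into 4 equal classes, the median share at starts went from 53.3% in the shallowest to 44.7% in the deepest. The median of RNA UMIs was 10878 in the shallowest class and 23204 in the deepest. The summed level of 5 late mitotic genes (PLK1, CDC20, CCNB1, CCNB2 and AURKA) was 2218 CPM in the shallowest class, then 1947, 1449 and 1681 CPM. These genes were picked after their values were seen. The median sum of the G2/M genes outside the score went the other way, at 151 UMIs per 10000 in the shallowest class, then 155, 157 and 169. The median score was 47.3 in the shallowest class, then 47.5, 48.1 and 59.6 UMIs per 10000. Cluster 1 supplied 27.8% of the shallowest class and 1.24% of the deepest, and cluster 0 29.6% and 74.5%. Doublet calls were 1.23% of the shallowest class, then 0%, 1.86% and 7.45%. A barcode shared with the 20% matrix was found in 6.67% of the members under 4000 and 0.876% of the deeper ones. The part of these in the share at starts was not tested.

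Open chromatin in the members lay closer to gene starts. Peaks within 1000 bp of the start of a canonical transcript held 46.96% of the members' ATAC counts and 43.9% of those of the weighted lowest 50%. Peaks at 1000 bp to 10 kb held nearly equal shares, 18.6% and 18.6%. Peaks at 10 to 100 kb held 30.9% against 33.2%, and those beyond 100 kb 3.59% against 4.27%. Taken nucleus by nucleus, the median share at starts was 47.5% in the members (quartiles 44.1 to 52.7%) and 45.01% in the lowest 50% (quartiles 42.2 to 48.1%), or 44.4% weighted, so the groups overlap widely. The summed share was higher in the members in all 5 clusters, by the most in cluster 1 (51.7% against 45.7%) and by the least in cluster 4 (44.1% against 42.6%). By chromosome, the members' share of counts over that of the weighted lowest 50% was highest on chromosomes 19 (1.08), 17 (1.06) and 22 (1.06) and lowest on 13 (0.927), X (0.928) and 4 (0.9395). Cluster 3 went the other way on chromosome 22 (0.956), and cluster 4 on X (1.02), 4 (1.04) and, by the least, 17 (0.999). Peaks away from starts put the same chromosomes at both ends, with 1.12 on chromosome 19 and 0.929 on X.

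Among 28934 peaks with at least 300 counts in both groups together, 582 were at least 1.5-fold higher in the members (2.01%) and 1358 at least 1.5-fold lower (4.69%), with a median ratio of 1.04. With the ratios centred on that median, 379 were higher and 1660 lower. Without weighting, 1375 were higher and 1755 lower. At a minimum of 1000 counts the order was turned, with 38 higher and 23 lower. Of the 13300 among them at gene starts, 195 (1.47%) were higher and 180 (1.35%) lower, and their median ratio was 1.07. The 107 measured peaks at the starts of G2/M genes outside the score had a median ratio of 1.15 (quartiles 1.03 to 1.31). 85 of them were above 1 (79.4%), against 67.5% of all peaks at starts, and 8 were at least 1.5-fold higher. The median was highest for mitotic cyclins and kinases (1.24) and for kinesins and spindle proteins (1.19) among the G2/M lists, and lowest for kinetochore genes (1.08), close to all peaks at starts. This order did not hold within the clusters. Cyclins and kinases had the highest median of the 5 lists in clusters 0, 2 and 4 and the list of condensin, cohesin and separase in clusters 1 (1.36) and 3 (1.28), while kinetochore genes were the lowest in none. In cluster 3 the kinesins were at 0.976, below all peaks at starts (1.04), and the cyclins and kinases at 1.04. S-phase genes had a median of 1.01 and repair genes 0.987. These ATAC ratios were far smaller than the RNA ratios of the same lists, 13.2 for cyclins and kinases. Over all genes at least 1.5-fold higher in RNA the start peaks had a median of 1.12, and over those at least 1.5-fold lower 1.004. Counts in peaks are mostly even numbers (90.1% of values), and no source used here says whether fragments or their ends were counted, so intervals were computed on the counts divided by 2.

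**Figure D5:**
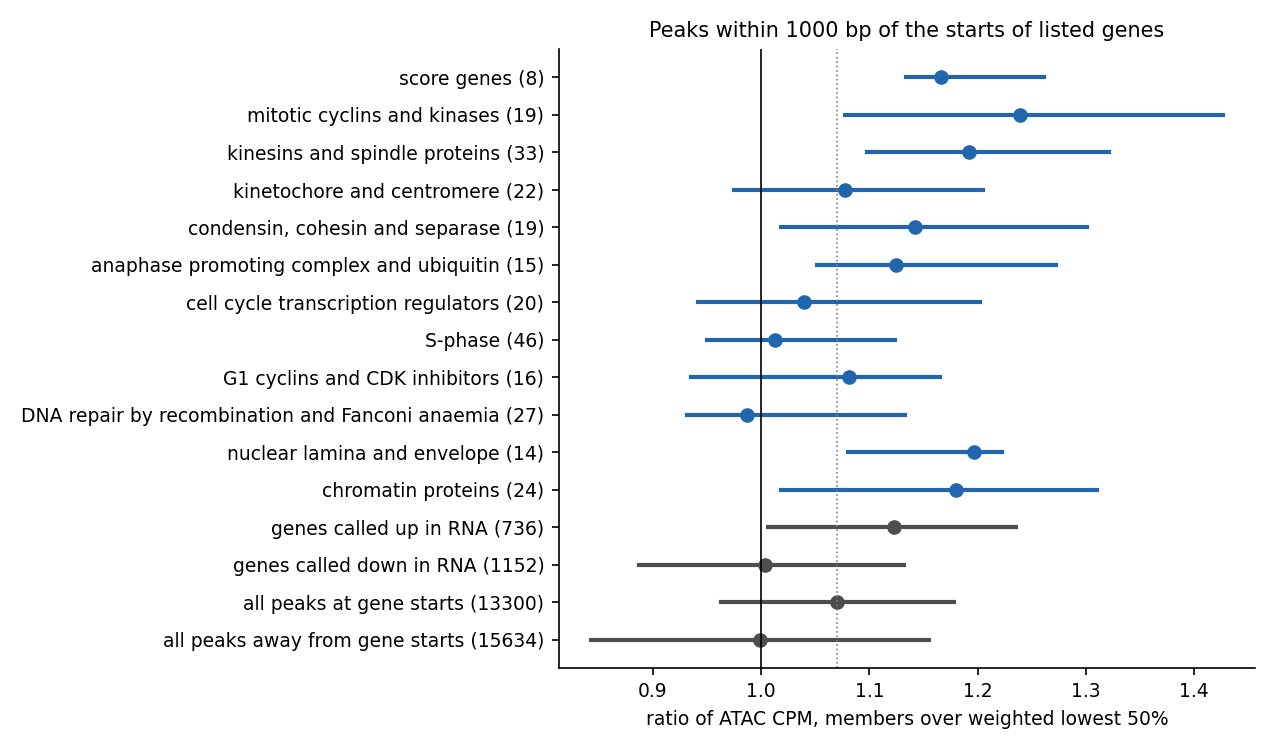
Ratio of ATAC CPM in the members over the weighted lowest 50% for peaks within 1000 bp of the starts of listed genes, as median (point) and quartiles (line) over the number of peaks in brackets; the dotted line is the median of all peaks at starts. Mitotic cyclins and kinases lie at 1.24, S-phase genes at 1.01 and peaks away from starts at 0.999.

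Single start peaks can be set beside the promoters printed above. The peak over the PLK1 promoter (chr16:23678323-23679215) was at 41.7 CPM (35.4 to 48.7) against 27.3 CPM, a ratio of 1.53. At CCNB2 (chr15:59104746-59105590), which encodes a further B-type cyclin, it was at 32.5 CPM (27.02 to 38.7) against 19.6 CPM, a ratio of 1.66. At CDC20 (chr1:43358378-43359259), whose window also holds the start of AL139289.2, it was at 55.8 CPM (48.6 to 63.8) against 35.5 CPM, a ratio of 1.57. These 3 had intervals above the level of the weighted lowest 50%, and each was higher in 4 of 5 clusters. The MKI67 peak (chr10:128126079-128126982), over the gene of a protein that coats mitotic chromosomes, had a ratio of 1.34, with 179 counts in all members. It was at 23.5 CPM (18.8 to 28.8) against 17.5 CPM, so its interval also lay above that level, and it was higher in 4 of 5 clusters. At this peak the counting interval of the unweighted lowest 50%, 15.7 to 20.2 CPM, overlapped that of the members. The KIF11 peak (chr10:92592691-92593547) had a ratio of 1.1 and the CDK1 peak (chr10:60777974-60778837) 0.952, and for both the members' interval holds the level of the weighted lowest 50%.

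Of the remaining starts, CCNB1 (chr5:69166597-69167493) had a peak at 56.1 CPM (48.8 to 64.1) against 39.9 CPM, a ratio of 1.404, higher in all 5 clusters, and TOP2A (chr17:40417576-40418481) one at 70.2 CPM (62.1 to 79.2) against 50.6 CPM, a ratio of 1.39, also in all 5. CENPF (chr1:214602670-214603570) had a ratio of 1.18, higher in 5 clusters. BUB1, a checkpoint kinase, had 1.23, higher in 4 clusters. CENPE, a kinesin of the kinetochore, had 1.15, TPX2, an activator of AURKA, 1.14, ASPM, a spindle pole protein, 1.12 and UBE2C 1.12, and for these 4 the members' interval holds the level of the weighted lowest 50%. Without weighting the UBE2C ratio was 0.725, in the other direction. The peak over the start of CCNA2, cyclin A, had 1.24 but was higher in only 2 clusters and lower in 3, from 0.442 to 1.49, and a small peak 815 bp from that start held 24 counts. AURKA, whose window also holds the start of CSTF1, had 0.985, also with an interval that holds the other level. FOXM1, whose window also holds the start of RHNO1, was below 1, at 19.9 CPM (15.7 to 24.9) against 26.6 CPM, a ratio of 0.747, while its RNA ratio was 7.94. Over the clusters the FOXM1 peak was higher in 2 and lower in 3, from 0.377 to 1.25.

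Among peaks with at least 1000 counts and one direction in all clusters, the largest ratio was at chr9:120876014-120876895, 293 bp from the start of PHF19, a Polycomb-associated protein, with 84.1 CPM (75.2 to 93.8) against 33.3 CPM, a ratio of 2.52. PHF19 RNA was at 89.5 CPM (84.01 to 95.3) against 21.9 CPM, a ratio of 4.08. The next were at the starts of KHK (1.82), CKAP2L (1.75) and PRR7 (1.67), and at chr3:177358260-177359186, 9094 bp from any start (1.66). CKAP2L, a spindle protein, had an RNA ratio of 22.5. KHK, ketohexokinase, had only 24 RNA UMIs in the members, at a ratio of 0.733. Of the 5 smallest, 3 were far from a start, at chr11:62025277-62026182 (0.501, 55786 bp away), chr12:32436805-32437686 (0.523, 37247 bp) and on chromosome 8 (0.535, 24250 bp). The others lay at the starts of AC007611.1 (0.573) and of RIN2 with AL121761.1 (0.614).

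The same rule was applied to the 20% portion after the shared barcodes were left out, which gave 110 members and 550 nuclei of the lowest 50%. This portion came from the same mixed cells and is not a biological replicate. Its members had a median of 12219 ATAC counts against 10506 weighted, a ratio of 1.16, and their quartiles were 6709 and 17367.5. RNA UMIs had a weighted ratio of 1.22 and long-read counts, from a separate library of the same cDNA, 1.16 (33222 against 28586 weighted). The G2/M genes outside the score had 145 UMIs per 10000 against 30.2 weighted, and the S-phase genes 28.4 against 15.2 weighted. The median share of ATAC counts at starts was 50.8% against 49.3%, or 48.1% weighted. In the 20% portion 90 of the 102 G2/M genes were at least 1.5-fold higher, and 83 of these had at least 100 UMIs there. Of the 823 genes that were higher in the 80% portion, 775 had a ratio above 1 here and 625 passed the same limit. Of the 2114 lower ones, 1812 had a ratio below 1 and 1231 passed the limit. The share of all genes past the limit in this portion is not given, so these counts do not measure agreement between the portions. The ratio in the 20% portion was 23.5 for PLK1, 11.5 for CCNB1, 43.9 for GTSE1 and 12.4 for ESPL1.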

How the data were processed

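The 80% portion gave 1 RNA and 1 ATAC library, the 20% portion 1 of each and 1 long-read library, all from 1 mixture of 5 cell lines, and every sample of the labels was used. The authors deposited count matrices of UMIs per gene and of ATAC counts per peak, aligned to GRCh38, and a matrix of long-read counts per gene. Per the labels Cell Ranger ARC 2.0.0 was used. No source used here names the annotation of genes, and matrices made by another pipeline were not used. Columns of samples that could not be mapped numbered 0.

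Nuclei with at least 5000 RNA UMIs were ranked by the score, and the highest 10% were compared with the lowest 50%. Levels are summed counts per 1e6 UMIs, or per 1e6 ATAC counts in peaks (CPM). For each cluster of the lowest 50% the level was computed first and then averaged with the members' cluster shares as weights. Scanpy 1.11.5 clustered the log-normalised RNA (2000 variable genes without cell cycle lists, 30 components, 20 neighbours, Leiden resolution 0.05) and called doublets with Scrublet at an expected rate of 0.06. The 20% nuclei took the cluster with the best-correlated mean profile, and by the same step 97.1% of the 80% nuclei came back to the cluster they started in. Genes needed 100 UMIs and peaks 300 counts over both groups, and a feature past the fold had a ratio of at least 1.5 or at most 0.667. Gene starts and transcript spans came from the canonical transcripts of GENCODE v44 on GRCh38, and peak positions are given with the first base as 1. Exact Poisson and binomial intervals (SciPy 1.17.1) have a level of 95% and cover counting error only; for ATAC they were computed on counts divided by 2, since 90.1% of values were even. The weighted ratios were also computed on simulated Poisson counts with known changes, drawn from the cluster profiles of the lowest 50%. That simulation holds no variation between nuclei, so it can check the arithmetic of the weighting only.

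The members and lists were chosen with earlier results of these data known. Named genes were the score genes and, of each list, the 4 with the most UMIs, the 2 with the largest and the 1 with the smallest ratio. To these came, outside the lists, the 15 largest and 10 smallest ratios among genes with at least 1000 UMIs and 1 direction in all clusters. Named peaks were those at 17 gene starts and the 5 largest and 5 smallest with at least 1000 counts. Other genes named were the markers fixed for the label. The rest were picked after their values were seen (MCM3, MCM7, TYMS, LMNB2, PKMYT1, PHF19, CKAP2L and KHK). No comparison had replicates, so no test was run. Alternatives to the minimum depth, share of members, score genes, weighting, doublets, shared barcodes, limits and windows are given at the end.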

Additional observations from a re-analysis of the deposited data

How the results depend on the processing

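Of 185 values under other settings, 120 stayed within the interval of the main value, or within 1.5 times of it for counts, 62 moved past it and 3 changed direction. The 3 reversals were all of ATAC counts per nucleus, at 0.895 within RNA cluster 1, 0.869 in the shallowest bin of RNA UMIs and 0.976 in the middle bin, where the main ratio was 1.201; the cause was not tested. The ATAC ratio was 1.38 with no weighting, 1.27 with the score without CENPF, and 1.28, 1.37 and 1.59 within clusters 0, 3 and 4. The ratio of RNA UMIs (main 1.26) was 1.42 for the highest 5%, 1.16 for the highest 20%, and 1.34, 1.09 and 1.63 within clusters 0, 1 and 4. The ratio of G2/M genes outside the score (main 5.46) was 5.66 at 10000 UMIs, 6.12 and 4.44 for the highest 5% and 20%, 5.29 after thinning to 5000 UMIs, 5.57 without doublet calls, 4.79 in the 20% portion, and 5.85, 5.63, 4.65, 5.63 and 4.87 within clusters 0 to 4. The S-phase ratio (main 1.64) was 1.54 at 10000 UMIs, 1.37 and 1.88 for the highest 5% and 20%, 1.74 without CENPF, 1.76 with no weighting, 1.86 in the 20% portion, and 1.36, 3.12, 1.97 and 1.33 within clusters 0, 1, 3 and 4. The members' median share of ATAC counts at starts exceeded the unweighted one of the lowest 50% by 2.46 percentage points, and by 1.73 for the highest 20%, 1.46 in the 20% portion, and 6.48, 4.62, 3.36 and 1.75 within clusters 1 to 4.

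Counts past a fold depended on the minimum. Genes at least 1.5-fold higher and lower numbered 3614 and 9622 with no minimum, where genes with single UMIs enter, 419 and 519 at 1000 UMIs, a minimum chosen after seeing the data, and 404 and 654 at a fold of 2. Peaks numbered 19 and 232 at a fold of 2 and 38 and 23 at 1000 counts per peak. With no weighting, 1375 peaks were higher, and with ratios centred on the median peak, added after seeing the data, 379. The median of peaks at G2/M starts was 1.15 and lay from 1.12 to 1.19 under its alternatives. The share of members in RNA cluster 0 (main 50.3%) was 58.1% at 10000 UMIs and 64.4% and 44.3% for the highest 5% and 20%. That of cluster 1 was 4.95% for the highest 5%, that of cluster 2 was 14.7% at 10000 UMIs and 18.6% for the highest 5%, and that of cluster 3 was 5.26%, 12.01% and 5.88% for the highest 5%, the highest 20% and without CENPF. Another seed of the clustering, for which the same rule chose a resolution of 0.07, joined cluster 4 to part of cluster 3, giving 15.6% and 0%. The score after thinning shared 562 of the 646 members. No paired analysis was possible because each portion has 1 library of each kind and no group has replicates. Single peaks rest on few counts, which limits what depth can show at one start.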
